A study of Mus musculus with 19 samples.

Results

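Eph receptors are receptor tyrosine kinases, and their ligands, the ephrins, are tethered to the surface of the neighbouring cell. A-type ephrins hang on a lipid anchor and mainly bind EphA receptors, while B-type ephrins cross the membrane and mainly bind EphB receptors. Contact can signal into both cells and makes them pull apart or adhere, which sets tissue borders, guides axons and separates arteries from veins. In the lens, the receptor EphA2 and the ligand ephrin-A5 are known for the order of fibre cells, and variants in the human EPHA2 gene cause inherited cataract. The 9 genes described here are the receptors Epha2, Epha3, Epha4, Epha7, Ephb2 and Ephb4 and the ephrins Efna5, Efnb1 and Efnb2, taken from a named list. Of these, 8 can be read from a probe set that names no other gene, a probe set being the short oligonucleotides that together report 1 transcript. All 8 passed the filter on dim signals, among 13320 genes tested of 18193 with such a set. Ephb2 was not analysed here.

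Transcript levels were measured on 19 arrays of wild-type ICR mouse embryos, an outbred strain, with no transgene or treatment in any group. The lens series has 3 arrays of microdissected lens per embryonic stage (E10.5, then E11.5, then E12.5) and 4 arrays of whole body spanning E10.5 to E12.5. In the tooth series, 3 arrays carry tooth germ of E13.5 and 3 carry whole body of E11.5 to E13.5. The design asks which genes stand out in a tissue when the whole body is the reference, with cataract candidates in view. Over these stages the invaginating lens becomes a closed vesicle whose rear cells start to form fibres, while the tooth germ is an epithelial bud in condensing mesenchyme. Nothing in the labels says whether arrays of a group are separate litters, pools or repeat hybridisations, so p-values measure only the spread between these arrays, which may be technical.

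Levels below are log2 signals of the probe set with the highest mean, and 1 unit is a doubling. Differences are log2 with the standard error (SE) of the limma fit over all tested genes, and a gene was called at a Benjamini-Hochberg adjusted p under 0.05. Arrays of a group correlated at 0.965 to 0.995, and arrays of the lens and tooth series at 0.794 to 0.905. All 12 lens markers were higher in the lens than in the body at every stage, and 10 of 12 tested dental markers were higher in the tooth germ. Over all tested genes 13.5%, 14.7% and 16.6% were higher at the successive lens stages, and 16.6% in the tooth germ. Replicate 3 of the E10.5 lens had the lowest mean of the lens markers among lens arrays, 9.54, and without it 6 members were still called at E10.5. Probe sets at the 3′ and 5′ ends of control transcripts differed by -0.10 to 0.05 (Gapdh) and 0.21 to 0.48 (actin) in the lens series. In the tooth series the same differences were 2.82 to 4.08 and 4.22 to 5.05, and series and tissue cannot be told apart where levels are set across the series. Centring each array on its median moved the differences by 0.08 at E10.5, 0.13 at E11.5, 0.14 at E12.5 and 0.15 in the tooth germ. The split of called genes moved with it, from 1797 higher and 2548 lower to 2378 and 2292 at E10.5, from 1954 and 2965 to 2768 and 2446 at E11.5, from 2215 and 3559 to 3161 and 2876 at E12.5, and from 2214 and 3370 to 3285 and 2724 in the tooth germ.

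Epha2 and Efnb2 were higher in the lens than in the body at all 3 stages, Efna5 at E10.5 and E11.5, and Epha3, Epha4 and Epha7 were lower at all 3. At E10.5, 6 of the 8 members were called, 3 higher and 3 lower, where 32.6% of all tested genes were called (13.5% higher, 19.1% lower). The E11.5 lens again gave 3 higher and 3 lower, where 36.9% of genes were called (14.7% higher, 22.3% lower). In the E12.5 lens 2 were higher and 4 lower, where 43.3% were called (16.6% higher, 26.7% lower). All 3 comparisons share the same 4 body arrays. The median difference over the members at E12.5 was -0.49, against -0.05 over all tested genes, and it spans members that lay far above and far below 0.

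**Figure D1:**
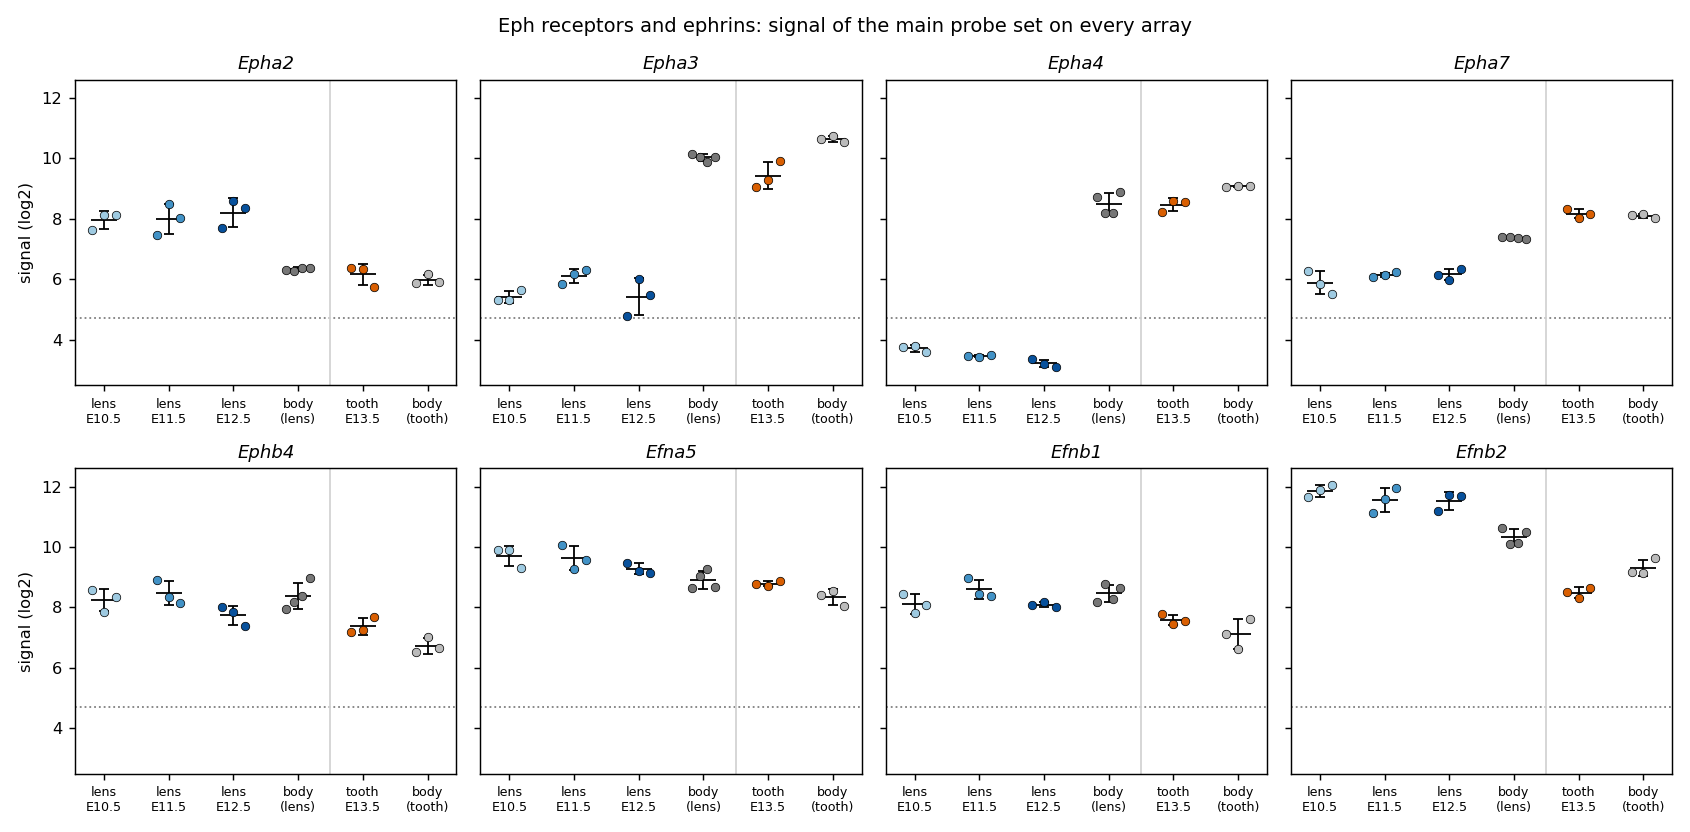
Log2 signal of the main probe set of each of the 8 members (y axis) on every array of the 6 groups (x axis). Points are arrays, black bars are the mean and SD, the dotted line is the 95th percentile of control probe sets without a target (4.71), and the grey line parts the lens series from the tooth series. Epha2 and Efnb2 are highest in the lens stages, Epha3 lies between 9.05 and 10.75 in both bodies and the tooth germ and between 4.78 and 6.29 in the lens, and all lens arrays of the main Epha4 probe set lie under the dotted line.

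Epha2, the receptor tied to cataract, was the one EphA receptor among the members that was called higher in the lens than in the body. Its signal was 7.62, 8.12 and 8.14 at E10.5, 7.46, 8.48 and 8.04 on the E11.5 arrays, and 7.68, 8.59 and 8.34 at E12.5. The 4 body arrays read 6.30, 6.26, 6.38 and 6.38. The lowest lens array was thus above the highest body array. The difference over the successive stages was 1.63 ± 0.23 (SE), 1.66 ± 0.23 and 1.88 ± 0.23, or 3.10-fold, 3.16-fold and 3.67-fold (adjusted p 1.4e-05, 1.1e-05 and 1.7e-06). Between lens stages the steps were 0.03 and 0.21, below the SE of 0.25, and the stage groups overlap. The lens arrays fell into sets of high and low signal of the bacterial hybridisation controls, which cross the stages, and the Epha2 difference was also taken within each. At E12.5 it was 1.36 ± 0.26 within the high set and 2.13 ± 0.17 within the low set. Both were called. Tooth germ read 6.38, 6.35 and 5.75 and its body 5.87, 6.16 and 5.90, which overlap (0.18 ± 0.25, adjusted p = 0.584).

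Efnb2, a transmembrane ligand that marks arteries and is also made by epithelia, was called higher at each lens stage. The lens arrays read 11.66, 11.87 and 12.05 at E10.5, 11.14, 11.59 and 11.95 on the E11.5 arrays, and 11.18, 11.71 and 11.70 at E12.5, above the body arrays at 10.63, 10.08, 10.12 and 10.48. No lens array fell into the range of the body. The difference was 1.53 ± 0.20, 1.23 ± 0.20 and 1.20 ± 0.20 over the 3 stages (adjusted p 5e-06, 6.3e-05 and 6.1e-05). All 4 probe sets of Efnb2 were called higher at each stage, with differences between 1.20 and 1.60 at E12.5. Of 11 endothelial markers tested, 0 were higher and 4 lower at E12.5, where 16.6% of all genes were higher and 26.7% lower. Their summed signal was 10.72 to 10.78 in the E12.5 lens and 10.98 to 11.02 in the body. The part of vessels in the Efnb2 values was not tested. Within the high and low bacterial control sets the E12.5 difference of Efnb2 was 1.08 ± 0.22 and 1.15 ± 0.15.

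The windows just before the RefSeq start sites of the members that stood highest and lowest in the lens are shown, since Epha2 and Efnb2 were higher together and Epha3 and Epha4 lower together. Each is the 250 bases before the start in the direction of the gene, from RefSeq on GRCm38.p6, with motif matches on either strand in capitals. Epha2 (gene at chr4:141301221-141329384) has its window at chr4:141300971-141301220 on the plus strand, and Efnb2 (gene at chr8:8617235-8661242) at chr8:8661243-8661492 on the minus strand.
Epha2: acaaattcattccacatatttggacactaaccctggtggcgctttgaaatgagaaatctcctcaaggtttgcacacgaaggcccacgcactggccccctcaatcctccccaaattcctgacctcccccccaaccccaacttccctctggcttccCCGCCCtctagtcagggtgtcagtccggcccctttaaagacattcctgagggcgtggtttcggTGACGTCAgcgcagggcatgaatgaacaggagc
Efnb2: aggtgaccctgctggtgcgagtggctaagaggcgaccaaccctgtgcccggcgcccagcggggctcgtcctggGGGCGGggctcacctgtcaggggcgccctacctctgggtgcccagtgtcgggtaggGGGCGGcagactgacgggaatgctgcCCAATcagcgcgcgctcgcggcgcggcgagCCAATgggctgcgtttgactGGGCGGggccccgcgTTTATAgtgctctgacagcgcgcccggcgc
The Epha2 window is 55.6% G or C with 9 CpG, near the median of all 32817 windows (52.4% and 6 CpG). It holds the palindrome TGACGTCA, the cyclic AMP response element, with its first base at -33, and such a match is in 1.55% of all windows. It also holds 1 GC box on the opposite strand (CCGCCC, at -96). The Efnb2 window is 72.0% G or C with 27 CpG. It holds TTTATA, the TATA box read on the opposite strand, at -30, a motif found in 12.4% of windows. CCAAT boxes stand at -95 and -65 and GC boxes (GGGCGG) at -177, -121 and -45, and these motifs are found in 33.8% and 32.7% of windows. The GC box is the motif of the search that both windows hold.

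Epha4, a receptor of motor and cortical axons that binds both ephrin classes, was lower in the lens at all 3 stages, and its main probe set was at control level there. Its signal was 3.77, 3.79 and 3.58 at E10.5, 3.45, 3.43 and 3.50 on the E11.5 arrays, and 3.35, 3.20 and 3.10 at E12.5, and all 9 lens arrays lay below 4.71, the 95th percentile of 27 control probe sets without a target. The body arrays read 8.73, 8.21, 8.19 and 8.87. By this probe set, signal in the body was at least 13.9-fold above the lens, taking the control level as the lens value. The measured differences were -4.79 ± 0.16, -5.04 ± 0.16 and -5.28 ± 0.16 (adjusted p 2.2e-14, 1.1e-14 and 4.8e-15). Of its 5 probe sets, 4 were tested and all 4 were called lower at each stage, but the other 3 gave smaller differences, from -3.27 to -2.56 at E12.5. Among them, 1 had mean signals of 5.19, 5.08 and 4.82 over the lens stages, above the control level.

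Epha3, a receptor of retinal and midbrain axons and of mesenchyme that binds ephrin-A5, was also lower in the lens at all 3 stages. Its arrays read 5.32, 5.30 and 5.64 at E10.5, 5.84, 6.18 and 6.29 on the E11.5 arrays, and 4.78, 6.01 and 5.47 at E12.5, against 10.14, 10.04, 9.89 and 10.05 in the body. The difference was -4.61 ± 0.23, -3.93 ± 0.23 and -4.61 ± 0.23, or 24.5-fold, 15.2-fold and 24.5-fold lower (adjusted p 5.6e-12, 6.1e-11 and 4.9e-12). All 4 of its probe sets were called lower at each stage, between -4.61 and -3.35 at E12.5, as the plot of all probe sets shows. The E11.5 arrays lay above the E10.5 arrays without overlap, but this step of 0.69 ± 0.25 was not called (adjusted p = 0.139).

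Epha7, a receptor whose ligands include ephrin-A5, was lower by a smaller amount. It read 6.28, 5.84 and 5.53 at E10.5, 6.07, 6.14 and 6.22 on the E11.5 arrays, and 6.15, 5.99 and 6.34 at E12.5, against 7.39, 7.38, 7.37 and 7.32 in the body. The groups do not overlap, and the difference was -1.48 ± 0.15, -1.22 ± 0.15 and -1.21 ± 0.15 (adjusted p 1.2e-07, 1.7e-06 and 1.5e-06). Its 4 probe sets were all called lower, between -2.55 and -1.07 at E12.5.

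These 3 receptors are made by neurons and by mesenchyme, and markers of both moved in the same direction. All 11 neuron markers were lower in the lens at each stage, with a summed signal of 8.26 to 8.51 in the E12.5 lens and 13.57 to 13.80 in the body, and 6 of the 11 were at or below the control level on all E12.5 lens arrays. Of 13 tested mesenchyme markers 12 were lower at E12.5, with a summed signal of 12.55 to 12.86 against 14.51 to 14.71, and none was at or below the control level on all of those arrays. The part of these cells in the lower signal of Epha3, Epha4 and Epha7 was not tested. In bulk tissue, fewer cells of a type and less RNA per cell cannot be told apart.

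Upstream windows of these 2 receptors, Epha3 and Epha4, are given for the same reason as above. Epha3 (gene at chr16:63543532-63864175) has its window at chr16:63864176-63864425 and Epha4 (gene at chr1:77367182-77515107) at chr1:77515089-77515338, both on the minus strand. The Epha4 start used by the table lies inside the annotated gene, so the last bases of its window do too.
Epha3: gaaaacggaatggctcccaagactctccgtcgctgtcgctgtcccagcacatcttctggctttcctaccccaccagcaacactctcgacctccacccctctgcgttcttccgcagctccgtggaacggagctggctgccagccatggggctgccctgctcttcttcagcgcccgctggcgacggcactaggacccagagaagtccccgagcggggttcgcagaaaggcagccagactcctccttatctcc
Epha4: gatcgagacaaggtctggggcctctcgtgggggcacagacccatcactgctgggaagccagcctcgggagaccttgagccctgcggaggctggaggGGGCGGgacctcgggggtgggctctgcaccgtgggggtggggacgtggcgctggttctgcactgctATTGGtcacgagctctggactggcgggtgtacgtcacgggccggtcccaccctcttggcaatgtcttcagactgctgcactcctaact
In the Epha3 window, 62.8% G or C with 16 CpG, no letters of the 8 motifs searched were found. The Epha4 window, 66.0% G or C with 14 CpG, holds a GC box (GGGCGG) at -154 and a CCAAT box read on the opposite strand (ATTGG) at -88. The other motifs searched on both strands were the AP-1 site TGANTCA (in 6.75% of windows), the Maf site TGCTGAC (3.81%), the homeobox core TAATTA (4.85%) and the RBPJ core GTGGGAA (5.42%), and none is in these 4 windows. A match is a run of letters and not a bound site.

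Efna5, the A-type ligand that EphA2, EphA3 and EphA7 can bind, was well above the control level on all arrays and moderately higher in the early lens. It read 9.89, 9.89 and 9.31 at E10.5, 10.06, 9.27 and 9.58 on the E11.5 arrays, and 9.48, 9.22 and 9.14 at E12.5, against 8.66, 9.05, 9.28 and 8.68 in the body. Arrays of E10.5 all lay above the body; those of E11.5 and E12.5 overlap it. The difference was 0.79 ± 0.20 at E10.5 (adjusted p = 0.00477) and 0.72 ± 0.20 at E11.5 (adjusted p = 0.00796), and both passed. Without the first E11.5 lens array the latter was 0.51 and missed the threshold (adjusted p = 0.0595). At E12.5 it was 0.37 ± 0.20 (adjusted p = 0.154). It was called with the bacterial control set as a block (0.45), with the mean of its probe sets (0.42) and within the low set (0.51). The fall between E10.5 and E12.5, -0.42 ± 0.21, was not called (adjusted p = 0.186). Its second probe set was below the filter and was not tested.

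Ephb4, the receptor of ephrin-B2 that marks veins, and Efnb1, a B-type ligand whose loss in humans disturbs the skull and face, overlapped the body at each lens stage. Ephb4 read 8.57, 7.85 and 8.33 at E10.5, 8.91, 8.35 and 8.15 on the E11.5 arrays, and 8.00, 7.85 and 7.40 at E12.5, against 7.96, 8.18, 8.37 and 8.96 in the body. Its difference was -0.11 ± 0.24, 0.10 ± 0.24 and -0.62 ± 0.24, of which the last had an adjusted p of 0.0476 over genes and missed the threshold in the fit over all probe sets. Within the high bacterial control set the E12.5 difference was -0.27 ± 0.30, and without the fourth body array it was -0.42; neither was called. Efnb1 read 8.45, 7.80 and 8.09 at E10.5, 8.97, 8.46 and 8.38 on the E11.5 arrays, and 8.08, 8.18 and 8.02 at E12.5, against 8.18, 8.77, 8.26 and 8.66 in the body. Its differences of -0.36, 0.14 and -0.37 (SE 0.22) were not called at any stage.

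**Figure D2:**
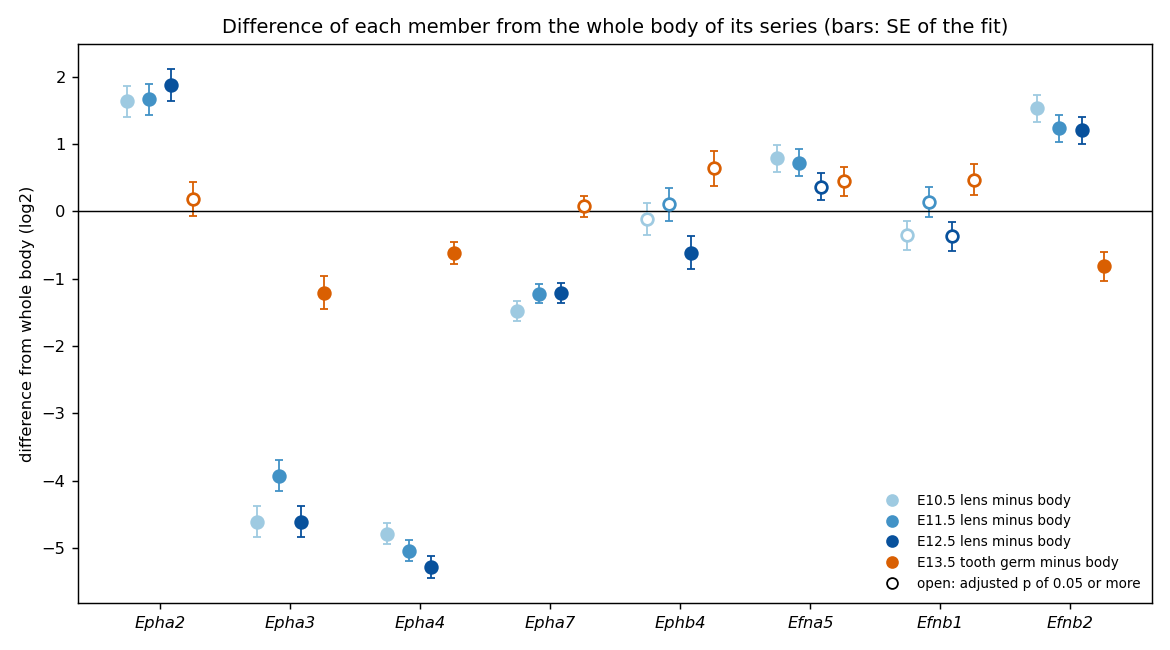
Difference from the whole body of the same series on the log2 scale (y axis) for each member (x axis), at the 3 lens stages (blue) and in the tooth germ (orange). Bars are the SE of the fit, filled points passed the threshold and open points did not. Epha3 and Epha4 lie between -5.28 and -3.93 in the lens but at -1.21 and -0.62 in the tooth germ, and Efnb2 lies above 0 in the lens and below 0 in the tooth germ.

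Between the lens stages themselves 1 member was called, in 1 of the 3 steps tested. From E10.5 to E11.5 none of the 8 was called (limma, 4.26% of all genes called), with Epha3 and Efnb1 under an unadjusted p of 0.05 (0.0116 and 0.046). From E11.5 to E12.5 again 0 were called (6.46% of genes), with Epha3, Ephb4 and Efnb1 at unadjusted p of 0.0115, 0.0123 and 0.0398. From E10.5 to E12.5, where 22.1% of genes were called (13.2% lower), 1 was: Epha4 at -0.49 ± 0.17 (adjusted p = 0.0421). All 6 values of this probe set lie below the control level, and the call was lost in 12 of 19 other settings, among them each fit without replicate 1 or 2 of E10.5 or replicate 2 or 3 of E12.5. Ephb4 and Efnb1 had their highest mean at E11.5, and their E12.5 arrays all lay below their E11.5 arrays. These steps of -0.72 ± 0.26 (adjusted p = 0.122) and -0.51 ± 0.23 (adjusted p = 0.248) were not called. Within the high bacterial control set Ephb4 was at -0.06 from the body at E10.5 and 0.64 at E11.5. Within the low set it was at -0.13 and -0.21, so the E11.5 peak of Ephb4 was not seen there.

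In the tooth germ the pattern was another one. Of the 8 members 3 were called against the tooth-series body, 0 higher and 3 lower, where 41.9% of all genes were called (16.6% higher, 25.3% lower). The median member difference was 0.13, against -0.04 over all tested genes. Efnb2 read 8.50, 8.32 and 8.66 in the tooth germ and 9.17, 9.13 and 9.62 in the body, with no overlap. Its difference was -0.82 ± 0.21 (adjusted p = 0.00473), and 2 of its 4 probe sets were called, the 4 ranging from -0.88 to 0.27. Epha3 read 9.05, 9.29 and 9.93 against 10.63, 10.75 and 10.53, also apart, a difference of -1.21 ± 0.25 (adjusted p = 0.00057) with 2 of 4 probe sets called. The other called set gave -1.96. The 2 that were not called had means below the control level in both tooth germ and body (4.29 and 4.58, 3.54 and 3.52). Epha4 read 8.21, 8.60 and 8.57 against 9.07, 9.07 and 9.09 (-0.62 ± 0.17, adjusted p = 0.00625), but only 1 of its 4 tested probe sets was called and their mean gave -0.11. Neuron markers were again lower, 11 of 11, with a summed signal of 8.42 to 9.26 in the tooth germ against 12.66 to 12.98 in the body. Of 13 mesenchyme markers 5 were higher and 2 lower. Of 11 endothelial markers 5 were lower and 0 higher there, with a summed signal of 9.65 to 9.96 against 10.65 to 10.92. The part of neurons or vessels in the Epha3, Epha4 and Efnb2 values was not tested.

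The 5 members that were not called all had a higher mean in the tooth germ than in its body. Ephb4 read 7.18, 7.26 and 7.68 against 6.53, 7.02 and 6.65, above without overlap, but missed the threshold (0.64 ± 0.26, adjusted p = 0.0558). Efna5 read 8.77, 8.72 and 8.87 against 8.41, 8.55 and 8.05, also above without overlap (0.45 ± 0.21, adjusted p = 0.103). Efnb1 read 7.78, 7.44 and 7.56 against 7.12, 6.64 and 7.62, which overlap (0.47 ± 0.23, adjusted p = 0.114). Epha7 overlapped too, 8.32, 8.01 and 8.16 against 8.12, 8.14 and 8.01 (0.07 ± 0.16, adjusted p = 0.735). With centred arrays the number of members called was 5, where 45.1% of all genes were called (24.7% higher, 20.5% lower). This count takes in members described in this paragraph, so the calls were then no longer all lower.

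The differences of lens and tooth germ from their own bodies were compared in 1 term of the fit, the E12.5 lens difference minus the tooth difference. It was called for 7 of the 8 members, 2 above and 5 below 0, where 39.6% of all genes were called (19.2% above, 20.4% below). Efnb2 had the highest value, 2.02 ± 0.29 (adjusted p = 2.1e-05), followed by Epha2 at 1.69 ± 0.34 (adjusted p = 0.00057). Epha4 was at -4.66 ± 0.23, Epha3 at -3.40 ± 0.34, Epha7 at -1.28 ± 0.22 and Ephb4 at -1.25 ± 0.36, all called; the lens signals of the main Epha4 probe set lie below the control level. Efnb1 was at -0.84 ± 0.32, just past the threshold (adjusted p = 0.042), and lost the call in 13 of 24 other settings. Of its 3 probe sets 1 was called. Efna5 was the member whose term was not called, at -0.08 ± 0.29 (adjusted p = 0.856). All 4 probe sets of Epha3, Epha7 and the 4 tested ones of Epha4 were called in the same direction, and 3 of 4 of Efnb2. For Epha3, 2 of these had means below the control level in both tooth germ and its body (3.54 and 3.52, 4.29 and 4.58). Their terms therefore rest on the lens difference and cannot speak to the tooth germ. For Epha7, the set with a term of -0.96 had means of 3.45 in the E12.5 lens and 4.52 in its body. Both lie below the control level, so the term of that set cannot speak to the lens.

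**Figure D3:**
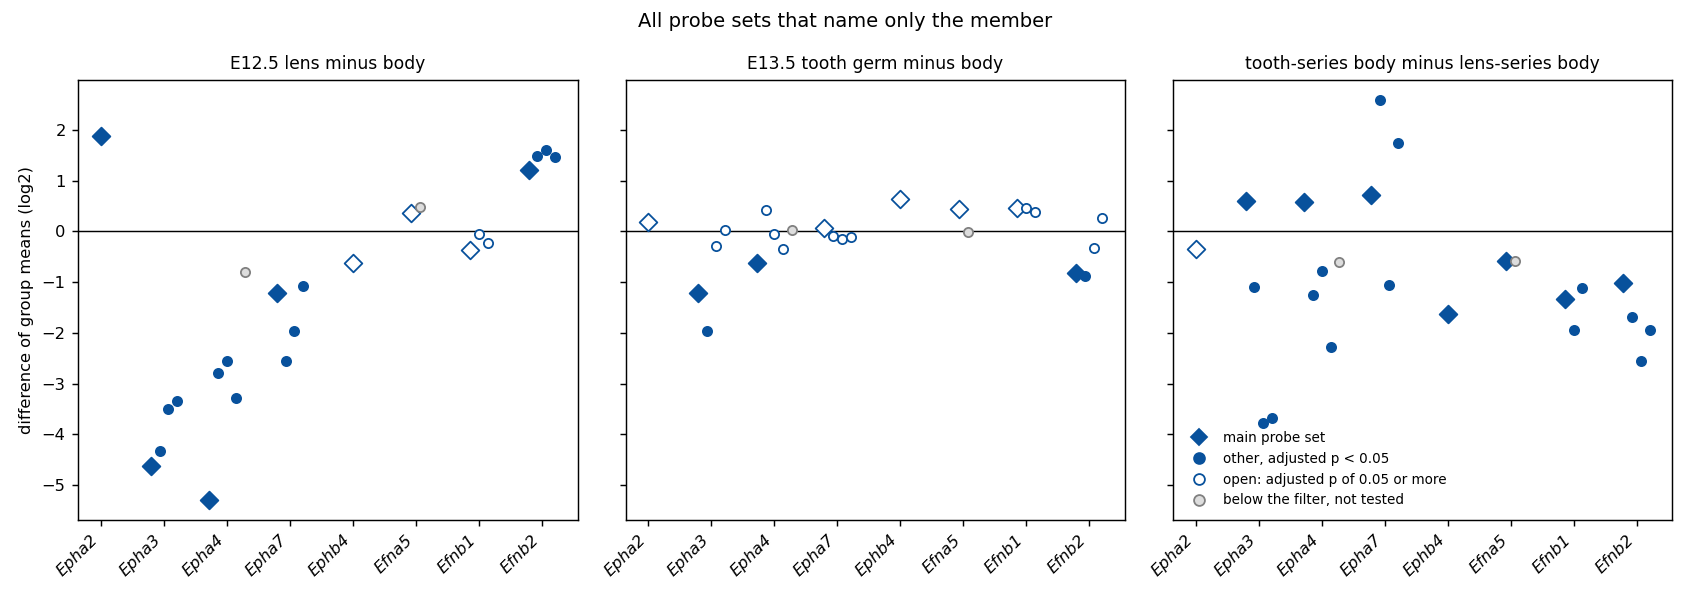
Difference on the log2 scale (y axis) of every probe set that names only the member (x axis) in 3 comparisons. Diamonds are main probe sets, circles the others; filled passed the threshold in the fit over probe sets, open did not, and grey were below the filter. In the lens all tested probe sets of a receptor fall on 1 side of 0 where any is called, while between the bodies those of Epha3, Epha4 and Epha7 lie on both sides.

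Levels set across the 2 series depend on the probe set. Between the bodies 7 of 8 members were called by their main probe sets, 3 higher and 4 lower in the tooth series, where 63.6% of all genes were (31.8% each way). By the main probe set Epha3 was 0.60 ± 0.23 higher in the tooth-series body and Epha4 0.58 ± 0.16 higher, but the other 3 tested probe sets of each were called lower, from -3.77 to -1.08 for Epha3 and from -2.28 to -0.78 for Epha4. Epha7 had 3 probe sets higher, up to 2.60, and 1 lower at -1.06. Ephb4 (-1.63 ± 0.24), Efnb1 (-1.34 ± 0.22), Efnb2 (-1.02 ± 0.20) and Efna5 (-0.58 ± 0.20) were lower there, and Epha2 was not called (-0.35 ± 0.23). The 3′ and 5′ control values given above differ between the same arrays, the bodies also cover different stages, and these cannot be told apart. The order of a member's levels over all 6 groups is therefore read within a series only.

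Within the lens series the order of mean levels was lens E12.5, E11.5, E10.5 and body for Epha2, of which the lens stages overlap (8.21 ± 0.47, 7.99 ± 0.51 and 7.96 ± 0.29, SD, n = 3) and the body lies apart (6.33 ± 0.06, SD, n = 4). For Efnb2 and Efna5 it was E10.5, E11.5, E12.5 and body, with each neighbour overlapping except the E12.5 lens and body of Efnb2. For Epha4 the body lay above the lens, and the lens stages, all below the control level by the main probe set, have no order. For Epha7 it was body, E12.5, E11.5 and E10.5, with the body apart and the lens stages overlapping. For Epha3 it was body, E11.5, E10.5 and E12.5, with the body apart, E11.5 above E10.5 without overlap but overlapping E12.5, and E10.5 and E12.5 overlapping at means of 5.42 each. For Ephb4 and Efnb1 it was E11.5, body, E10.5 and E12.5, each neighbour overlapping.

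The other 13 Eph receptors and ephrins of the mouse, are also on the array. Of 11 tested, 0 were called higher, 6 lower and 5 neither in the E12.5 lens, where 16.6% of all genes were higher and 26.7% lower, and the median difference was -0.96; Epha6 and Ephb6 were below the filter. Efna2, an A-type ligand known from retinal maps, was at -2.03 ± 0.14 against the body by its main probe set and at -0.83 ± 0.25 by its second, both called. The others with the largest differences were Efnb3 at -1.44 ± 0.18, Efna3 at -1.27 ± 0.26 and Efna4 at -1.14 ± 0.12. The adjusted p of the 4 main probe sets were 6.7e-10, 2.6e-06, 0.00047 and 1.6e-07. At E10.5 the ephrins called higher were Efna5, Efnb2 and Efna1, the last at 0.59 ± 0.22 (adjusted p = 0.0483) with the call lost in 9 of 20 other settings, and those called lower were Efna2, Efna3 and Efnb3.

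Efna2 and Efna4, picked out after their values were seen, fell from E10.5 to E12.5. Efna2 read 8.54, 8.59 and 8.64 at E10.5, 8.04, 8.11 and 7.95 on the E11.5 arrays, and 7.23, 7.35 and 7.23 at E12.5, with no overlap between stages. The whole fall was -1.32 ± 0.15 (adjusted p = 3.7e-06). Its steps were -0.56 ± 0.15 (adjusted p = 0.0399), a call lost in 13 of 19 other settings, and -0.76 ± 0.15 (adjusted p = 0.00401), lost in 4 of 19. Efna4 read 8.15, 8.13 and 8.19, then 7.58, 7.80 and 7.65, then 7.26, 7.35 and 7.09, again apart, with a whole fall of -0.93 ± 0.13 (adjusted p = 2.3e-05). Its steps of -0.48 and -0.45 were called, but lost the call in 10 and 11 of 19 other settings; with the replicate number as a block the second step had an adjusted p of 0.0894. A second Efna2 probe set gave 0.07 for the first step and -0.27 for the whole fall, neither called. Efna4 has 1 probe set.

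**Figure D4:**
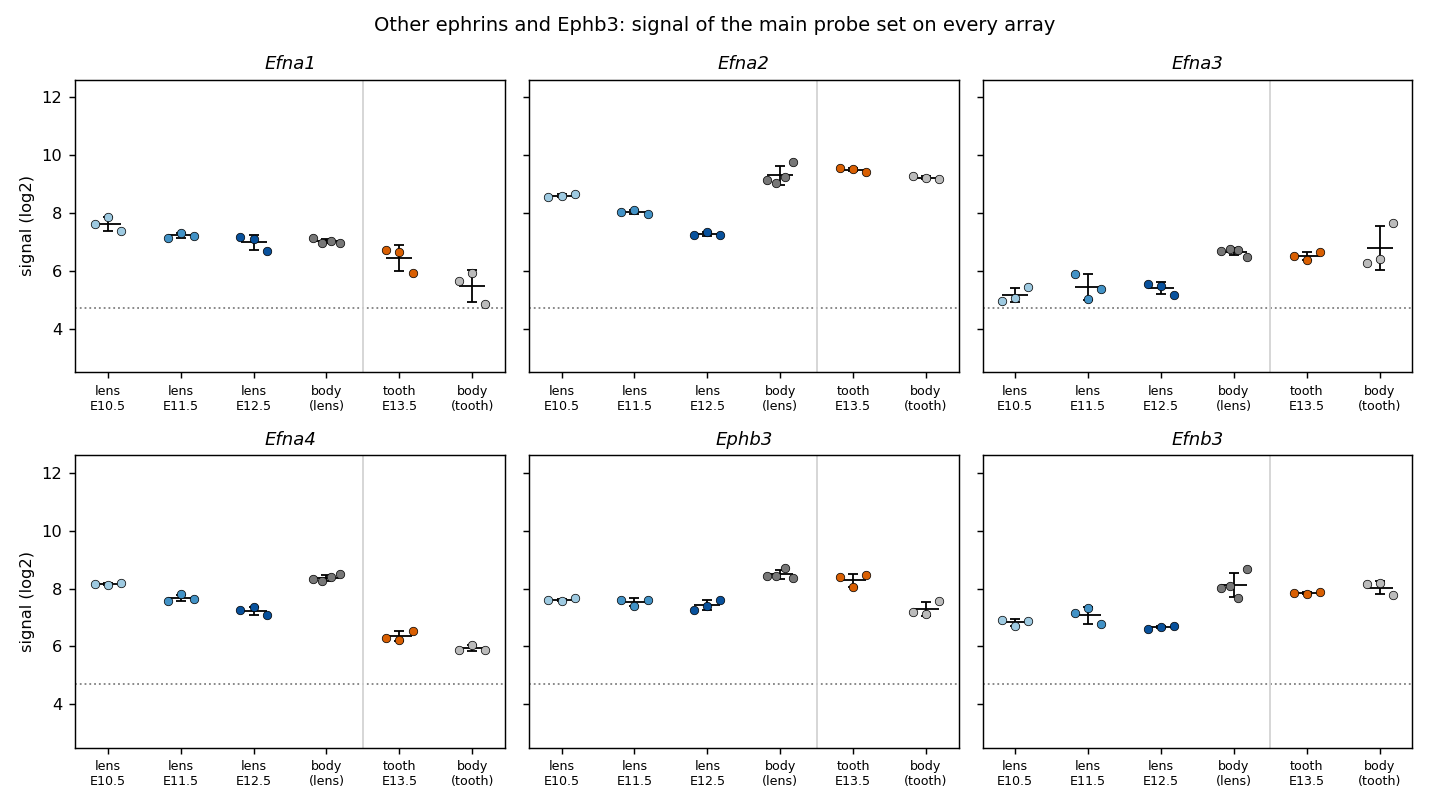
Log2 signal (y axis) of Efna1, Efna2, Efna3, Efna4, Ephb3 and Efnb3 on every array of the 6 groups (x axis), with the mean and SD; the dotted line is the control level of 4.71. Efna2 and Efna4 lie lower at each later lens stage without overlap, and Ephb3 is higher in the tooth germ than in its body but lower in the lens than in its body.

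In the tooth germ 3 of these 11 were higher and 2 lower, where 16.6% of all genes were higher and 25.3% lower. Ephb3, a receptor of ephrin-B ligands in epithelia, was higher by 1.00 ± 0.15 (adjusted p = 3.2e-05), whereas in the E12.5 lens it was lower by 1.06 on the log2 scale, at -1.06 ± 0.14. The test of that difference gave -2.07 ± 0.21 (adjusted p = 2.6e-07). Ephb1 was lower at -2.27 ± 0.19 and Epha5 at -1.83 ± 0.36, both receptors best known from neurons. Efna1 was higher at 0.97 ± 0.24 by its main probe set, while its second probe set gave 0.07 and was not called.

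Genes that act beside Eph receptors and ephrins were taken from a list of 45 signalling partners, of which 41 were tested. At E12.5 in the lens 7 were higher and 7 lower, where 16.6% of all genes were higher and 26.7% lower, with a median of -0.07. Ngef (ephexin), an exchange factor that binds EphA receptors, was above the body by 0.50 ± 0.19, 1.12 ± 0.19 and 2.03 ± 0.19 over the successive lens stages. The E10.5 call was lost in 12 of 20 other settings. The rise of Ngef from E10.5 to E12.5 was 1.53 ± 0.20 (adjusted p = 1.6e-05). Chn2, a Rac-inactivating protein of the chimaerin family, was higher by 1.40 ± 0.33 at E12.5 and rose from E10.5 by 2.29 ± 0.35 (adjusted p = 7.7e-05). At E10.5 Chn2 was called below the body, between -1.28 and -0.29 over 20 other settings, of which 12 lost the call. Grip1, a scaffold that binds ephrin-B tails, was higher at each stage, by 0.96 ± 0.15, 0.93 ± 0.15 and 0.85 ± 0.15. The kinase Fyn was lower at -1.03 ± 0.19 at E12.5, the Rac exchange factor Tiam1 at -0.97 ± 0.15, the adaptor Grb10 at -0.85 ± 0.11 and the phosphatase Acp1 at -0.68 ± 0.15. In the tooth germ 5 were higher and 16 lower, where 41.9% of all genes were called. They include Arhgef5 at 1.00 ± 0.17 and Chn2 at -1.74 ± 0.35, Chn1 at -1.43 ± 0.19, Arhgef15 at -1.35 ± 0.18 and Nck1 at -1.35 ± 0.15.

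Of 9 junction proteins that sit beside these receptors in lens cells, 8 were tested, and 4 were higher and 2 lower at E12.5, where 43.3% of all genes were called. The gap junction gene Gja3 had a mean signal of 12.25 in the lens and 3.92 in the body, the latter below the control level. Cdh1 (E-cadherin) was higher by 2.98 ± 0.16, Cdh2 (N-cadherin) by 1.77 ± 0.24 and Tjp1 by 0.88 ± 0.13. Cdh1 fell from E10.5 to E12.5 by 1.04 ± 0.18 on the log2 scale (adjusted p = 0.00021). Cldn4 was lower at -1.37 ± 0.17, and Ctnna1 at -0.34 ± 0.13, a value that turned to 0.66 with the probe set of largest variance. In the tooth germ Cdh1 was higher (1.80 ± 0.18) and Cdh2 lower (-1.49 ± 0.25).

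The genes whose log2 signal followed each member most closely over the 19 arrays are given as a description; arrays of a series share their processing and tissue. Epha2 was closest to Tead1, Pitx3 and Clu (Pearson r 0.968, 0.967 and 0.965), of which Pitx3 is a lens transcription factor. Efnb2 was closest to Nlk, Rnf145 and Etv5 (0.985, 0.972 and 0.970). Both Epha3 and Epha4 had St8sia2, a polysialic acid synthase of the nervous system, first (0.991 and 0.988). The next were Sertad4 and Tgfbi for Epha3 (0.988 and 0.986), and Aff3 and Egfl6 for Epha4 (0.987 each). Epha7 was closest to Otor (0.982), Efna5 to Ccnl1 (0.979), Ephb4 to Tyro3 (0.958) and Efnb1 to Acd (0.934). The 13 arrays of the lens series alone were an addition made after seeing the data. There Epha4 was closest to the neuronal genes Snap25 and Nefl (0.998 and 0.996), then to C130071C03Rik (0.996). Epha3 was closest to Fez1, Lrrn1 and Sertad4 (0.994, 0.993 and 0.9905) and Efnb2 to Npnt (0.978). The lens signals of the main Epha4 probe set all lie below the control level, so its r there rests mainly on body against lens.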

How the data were processed

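Expression was measured on 19 Affymetrix arrays with biotin-labelled cRNA. The authors deposited 1 intensity per probe set and array; RMA and affy 0.7 are listed in the submitters' processing notes, without a role. RMA corrects background, makes the distributions of the arrays alike and sums the probes of a set, which shrinks differences of dim probe sets. The deposited intensity values are linear (5.4 to 25043.5), so log2 was taken. No further normalization was made. The platform annotation, dated 2016, lists 45101 probe sets; 34945 carry a single gene symbol, 932 more than 1, and 34741 were matched to RefSeq on GRCm38.p6 by gene ID.

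Where several probe sets name a gene alone, the one with the highest mean log2 stands for it. The filter required a signal over 44.1 (5.46 in log2), the overall median, on at least 3 arrays. limma 3.58.1 in R 4.3.3 was fitted with 6 group means over all arrays, moderated two-sided tests of 9 contrasts, and Benjamini-Hochberg adjustment over the 13320 genes; a gene is called at an adjusted p under 0.05. The script was tested on simulated data. The number of arrays limits the precision. No 2 arrays shared over 2.04% of values exactly.

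All members are named. Of the other Eph family genes and of the 45 partners and 9 junction genes, up to 4 with the largest called difference in each direction are named, with groups apart; other names were chosen after their values were seen. Likeness is Pearson r over the arrays. The members and lists were chosen with earlier results of these data known. Groups share replicate numbers, and deviations of same-numbered arrays from their group means were correlated. Between E11.5 and E12.5 lens all 3 pairs were over 0.1 (0.40 to 0.64), a trait of the data and not of the labels. These pairs also share a bacterial control set, high for replicate 1 and low for replicates 2 and 3. Within the low set, replicate 3 of E11.5 and replicate 2 of E12.5 correlated at 0.35. For replicate 2 of E11.5 and replicate 3 of E12.5 the value was 0.08. Pairing by number and a shared control set cannot be told apart here. Between any other groups compared, same-numbered pairs were not all over 0.1: -0.06 to 0.58 for E10.5 with E11.5, -0.03 to 0.50 for E10.5 with E12.5, -0.53 to 0.24 for lens stages with body and -0.08 to 0.03 in the tooth series. Alternatives were centring, quantile normalization, an added 16, other filters, other probe sets, only the compared groups, robust moderation, the replicate block, the bacterial control sets and leaving out each array.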

Additional observations from a re-analysis of the deposited data

Results flagged for a closer look

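For 7 members the difference of the E12.5 lens from its body and that of the tooth germ from its body were not alike by the test of the difference itself (limma, adjusted over all tested genes). Over all tested genes 39.6% were called in this test. The value, lens difference minus tooth difference in log2, was 1.69 for Epha2, -3.40 for Epha3, -4.66 for Epha4, -1.28 for Epha7, -1.25 for Ephb4, -0.84 for Efnb1 and 2.02 for Efnb2. The Efnb1 call was lost in 13 of 24 other settings, and 1 of its 3 probe sets was called. Epha2 and Efnb2 were called higher than the body in the lens; in the tooth germ Epha2 was not called and Efnb2 was lower. By their main probe sets Epha3 and Epha4 were lower in both tissues and further below the body in the lens. In the tooth germ 2 of 4 probe sets of Epha3, 1 of 4 tested of Epha4 and 2 of 4 of Efnb2 were called. The mean of the Epha4 probe sets gave -0.11 there. Epha7 was lower in the lens and not called in the tooth germ. The lens and the tooth germ come from series with unlike 3′ to 5′ control values and from different stages, so tissue, stage and series cannot be told apart in these values. No group of 4 arrays had a member value far from the others.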

How the results depend on the processing

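Of 36 called differences of the members, 26 kept direction and call under every alternative setting and left-out array when single other probe sets are not counted; 9 lost the call under at least 1 and 2 reversed, both between the bodies. With single other probe sets counted too, 23 kept both, 11 lost the call and 7 reversed. Uncalled differences that changed sign without being called were counted as unchanged (29 with other settings, 23 with an array left out, 15 with other probe sets). From E11.5 to E12.5 the number of members called was 1 with the bacterial control set as a block, and 0 to 1 with an array left out. From E10.5 to E12.5 it was 2 with that block, 0 with centred arrays, an added 16, no filter, the probe set of largest variance, robust moderation or within the high or low set, and 0 to 1 with an array left out. In the tooth germ it was 5 with that block, centred arrays, only the compared groups or quantile normalization, against 3 in the main fit, all lower. The count of 5 takes in members not called in the main fit, whose means there were all higher in the tooth germ. With the replicate block, where numbers pair only the E11.5 and E12.5 lens, the counts were 5 at E12.5 against the body, 4 in the tooth germ and 6 for the lens against tooth term, and 6 between the bodies; the others were as before.

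Single other probe sets reversed some called values: in the tooth germ, Epha3 was 0.025, Epha4 0.42 and Efnb2 0.27 with 1 of theirs, and from E10.5 to E12.5 Epha4 was 0.060. The Epha3 value of 0.025 sets a tooth germ mean of 3.54 against 3.52 in the body, both below the control level. Between the bodies, Epha3 was -1.98 with the mean of its probe sets and -3.77, -1.08 and -3.68 with the others singly, Epha4 was -0.87 with the mean and -2.28, -1.26 and -0.78 with others, and Epha7 was -1.06 with 1 other. For Ctnna1 the lens difference was 0.26 with the mean and 1.10 with the probe set of largest variance in the E11.5 lens, and 0.057 and 0.66 in the E12.5 lens. Grb10 in the tooth germ was 0.006 with the latter. The probe set fit was added after seeing the data. Of 43 called results of the other Eph family genes 12 lost the call under at least 1 setting and 0 reversed; of 86 of the partners 47 lost it and 3 reversed. The cause of these changes was not tested. Signals near or below 4.71 carry no order, and those of the main Epha4 probe set in the lens all lie below it.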

Other observations

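Further marker lists were counted in the same fit. Over all tested genes 13.5% were higher and 19.1% lower in the E10.5 lens. In the E12.5 lens 16.6% of all tested genes were higher and 26.7% lower, and in the tooth germ 16.6% and 25.3%. Of 12 surface ectoderm markers, 6 were higher and 4 lower in the E10.5 lens, and 1 was higher and 10 lower at E12.5, while 9 were higher in the tooth germ. The log2 of their summed linear signal fell from between 12.73 and 13.11 at E10.5 to between 10.76 and 10.91 at E12.5. These are the same stages as for the signal of Efna2 and Efna4. Of 11 macrophage markers, 4 were higher and 0 lower in the E12.5 lens, and 6 were lower in the tooth germ. Of 7 tested neural retina markers, 4 were higher and 3 lower at E12.5; of 4 tested pigment and optic vesicle markers, 3 were higher and 1 lower. The part of these cells in the values of the Eph receptors and ephrins was not tested.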
